A study of Homo sapiens with 24 samples.

Results

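Heat shock proteins and their J-domain partners are the chaperones that fold proteins, hold them in solution and take aggregates apart, and they were followed here as mRNAs near proteins of stress granules and processing bodies. The members were the protein-coding genes named DNAJA, DNAJB, DNAJC or HSPA with a number, together with HSPB1, HSPB8, HSPD1, HSPE1, HSPH1, the 3 HSP90 genes, BAG1 to BAG6, HSF1 and HSF2, without pseudogenes. They came to 74 of the 57992 genes in the deposited count table. Of these 74, 60 had enough counts to be tested, among 14360 tested genes, and the 14 that did not are described with the levels.

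All libraries came from HEK293T, a human embryonic kidney cell line, in 3 stable lines that each carried 1 protein fused to miniSOG, a flavoprotein that produces singlet oxygen in blue light. The fusions were TIA1-miniSOG and G3BP2-miniSOG, of stress granule proteins, and miniSOG-DDX6, of an RNA helicase of processing bodies. Labelled RNA was captured through propargylamine and biotin, and each condition had a labelled capture, the input, RNA kept back before capture, and a capture from cells given light but no propargylamine (no-probe capture), with 2 libraries each, 24 in all. The TIA1, G3BP2 and DDX6 lines were studied under 0.5 mM sodium arsenite (40 min before the probe, labelled 1 hr in all). Arsenite is a stressor that halts translation and makes stress granules form. The DDX6 line was also studied without arsenite (unstressed). All cells, the unstressed ones included, were given light for 15 min at 24 mW per cm2. Those of the labelled captures and inputs were also given 10 mM propargylamine for 5 min. Unstressed therefore means without arsenite, not without light on miniSOG. Every cell carried a fusion, no line without miniSOG is among the libraries used here, and each fusion has its own line, so that fusion and line cannot be told apart. Whether the replicates came from separate cultures is not in the labels, so p-values measure the spread between libraries as labelled.

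HSP70 proteins, coded by the HSPA genes, bind unfolded stretches of protein and release them in cycles of ATP hydrolysis. J-domain proteins bring them clients and start hydrolysis, and BAG proteins and the HSP110 group (HSPH1, HSPA4, HSPA4L) let them exchange nucleotide and let go. HSF1 is the transcription factor that raises the inducible members in stress by binding heat shock elements, and HSP70 itself is known as a factor in the disassembly of stress granules.

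Total counts ran from 1129510 to 5919467 per library, and the 74 members held 0.459% to 2.18% of them. Reads of the mitochondrial genome made up 1.743% to 8.481% of counts in the labelled captures and 18.78% to 31.64% in the other libraries. Folds are given after TMM scaling, which sets libraries level by a trimmed mean of their log ratios. Among markers of the cell line, VIM stood between 144.8 and 220.3 CPM (counts scaled to TMM library sizes) and NEFM between 52.49 and 87.54 CPM in the inputs. NEFL stood between 49.07 and 83.9 CPM there, and PAX2 was low, between 3.282 and 12.55 CPM. Of 9 markers of other cell types, PTPRC, CD3E, CDH5 and KRT5 had no count in the inputs, ALB, APOA1, COL1A2 and PECAM1 at most 2 counts in any input, and COL1A1 14.46 to 25.2 CPM. Replicates correlated with r from 0.9258 to 0.989 on log2 CPM across genes.

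Per kilobase of exon, the highest median levels over the 8 inputs were those of HSP90AB1 (556 CPM per kb), HSP90AA1 (338.5), HSPA8, the constitutive HSP70 (322.1), and HSPD1, the mitochondrial chaperonin (244.6). HSP90B1 and HSPA5 (BiP), the HSP90 and HSP70 of the endoplasmic reticulum (ER), followed at 126.3 and 82.34 CPM per kb. A level in bulk RNA is an average over cells, so that fewer expressing cells and less RNA per cell cannot be told apart.

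The stress-inducible HSP70 genes could not be read from these counts. HSPA1A had 1 count and HSPA1B 5 counts over all 24 libraries, HSPA1L had none, and summing HSPA1A with HSPA1B gave 6 counts, too few to test. A count of 0 allows up to 3 counts in a library. DNAJA3, a J-domain protein of mitochondria, was also at 0 in all 24 libraries, BAG6 had 128 counts and HSPA6, another inducible HSP70, 56. HSPA1A lies at chr6:31815464-31817946 (GENCODE 29, GRCh38), and 43 of the 49 protein-coding genes within 250 kb of it (87.76%) had fewer than 24 counts over all libraries, against 28.61% of all protein-coding genes. The same held for 40 of 46 genes around BAG6 and 7 of 15 around DNAJA3. How reads with several genomic places were handled is not given in the sources used here, and its part in these zeros was not tested. The other members below the count filter were DNAJA4, DNAJB7, DNAJB8, DNAJB13, DNAJC5B, DNAJC5G, DNAJC15 and DNAJC28.

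The first comparison asks which chaperone mRNAs differed between arsenite and no arsenite in the DDX6 line. DNAJB1, the main J-domain partner of cytosolic HSP70 and a classical HSF1 target, was the only member that passed in the inputs, at a fold change of 2.71 (1.44 ± 0.27 on the log2 scale, estimate ± SE, adjusted p = 0.00505, quasi-likelihood test of edgeR, Benjamini-Hochberg adjusted over all tested genes, here and below). This was 1 of 60 members, against 1.15% of all tested genes in either direction and 0.362% higher. It stood at 95.0 and 171 CPM in the 2 arsenite inputs and at 57.9 and 40.2 CPM in the unstressed inputs, so the groups did not overlap. It also passed in the no-probe captures, with 97.7 and 189.5 against 57.1 and 48.7 CPM (1.46 ± 0.28, adjusted p = 0.00437, the only member, against 2.4% of all genes and 1.01% higher). In the labelled captures DNAJB1 (0.88 ± 0.25, adjusted p = 0.0421) and HSPA5 (0.83 ± 0.23, adjusted p = 0.0355) passed, 2 of 60 members against 3.93% of all genes and 1.16% higher. HSPA5 stood at 584 and 896 CPM in the arsenite captures and at 426 and 408 CPM in the unstressed ones.

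None of these calls held with each library left out in turn. Each group has 2 libraries, so leaving 1 out also costs the test power, here and below. A call that ends this way does not by itself show that it rested on that library. Without the arsenite input of replicate 2 the DNAJB1 difference in the inputs was 0.95 with an adjusted p of 0.450, and without unstressed input replicate 2 it was 1.20 with an adjusted p of 0.187. Without the arsenite no-probe capture of replicate 2 it was 0.90 (adjusted p = 0.169), and without unstressed no-probe capture replicate 2 it was 1.34 (adjusted p = 0.0610). In the labelled captures the call on HSPA5 ended without arsenite replicate 2 (0.50, adjusted p = 0.546) or without either unstressed capture (adjusted p = 0.177 and 0.205), and DNAJB1 there fell to 0.38 (adjusted p = 0.718) without arsenite replicate 2 and lay at adjusted p from 0.05003 to 0.227 without each of 10 other libraries.

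Most other members also stood higher under arsenite without passing the test. In the inputs 51 of 60 members (85.0%) had a positive log2 fold change, against 52.06% of all tested genes, with a median of 0.29 against 0.02. In the labelled captures these were 42 members, against 50.38% of all genes, and in the no-probe captures 47 (78.33% against 50.71%). The 15 tested members on a list of heat-inducible cytosolic chaperones had a median of 0.36 in the inputs, from 0.08 to 1.44, and the list of the chaperonin TRiC and of prefoldin, which fold actin and tubulin, had a median of 0.50, from 0.37 to 0.65, with 0 of 13 past the threshold. The heat-inducible list is broad and also holds HSP90AB1 and the constitutive HSPA8. On it, HSPA1A, HSPA1B, HSPA1L, HSPA6 and DNAJA4 were below the count filter.

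The arsenite replicates of the DDX6 line differed from each other. HSPA8 stood at 803 CPM in the input of replicate 1 and 2197 CPM in that of replicate 2, against 783 and 714.5 CPM in the unstressed inputs. Its labelled captures held 1099 and 3184 CPM under arsenite, against 1137 and 1052 CPM unstressed, and its no-probe captures 764 and 1959 CPM, against 643 and 628 CPM. In each kind of library replicate 2 lay far above the unstressed level and replicate 1 near it.

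DNAJA1, a J-domain partner of HSPA8, had inputs of 159 and 356 CPM under arsenite and of 144 and 135 CPM without. HSPH1, the HSP110 exchange factor, had 133 and 260 CPM against 108 and 117 CPM, and HSP90AA1, the inducible HSP90, 1064 and 1741 CPM against 789 and 868 CPM. In all 4 of these mRNAs the second arsenite replicate was the highest of the 4 DDX6 inputs.

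Over the whole set, 30 of 60 members were higher in arsenite replicate 2 than in replicate 1 in all 3 kinds of library, against 22.28% of all tested genes, and 6 were lower in all 3, against 21.44%. Of the 30, 9 were among the 15 heat-inducible members. In the TIA1 line 19 were higher and 5 lower (16.25% and 15.63% of all genes), in the G3BP2 line 3 higher and 11 lower (11.65% and 16.0%), and in the unstressed DDX6 cells 8 higher and 4 lower (11.73% and 13.2%). With arsenite replicate 1 left out of all 3 kinds of library at once, an alternative added after seeing the data, 13 members passed in the inputs, 19 in the labelled captures and 21 in the no-probe captures, against 10.2%, 17.2% and 14.5% of all tested genes. This leaves the higher replicate as the lone arsenite library of each kind, assumed to vary like the other groups. With replicate 2 left out of all 3 kinds, 1 member passed in each kind (0.404%, 1.78% and 1.77% of all genes). With single libraries left out, the count in the inputs was 0 without arsenite input replicate 2 or unstressed input replicate 2, 6 without arsenite input replicate 1 (2.83% of all genes), and 2 without either arsenite no-probe capture. In the labelled captures it was 17 without arsenite capture replicate 1 (10.3% of all genes), 7 without either arsenite no-probe capture (7.42%), 3 without either arsenite input, and 0 without arsenite capture replicate 2 or either unstressed capture. In the no-probe captures it was 17 without arsenite replicate 1 (10.4%), 5 without either arsenite labelled capture, 3 without either arsenite input, and 0 without replicate 2 of either condition. Counts here without a share of all genes beside them cannot be read as particular to the members. The labels do not say whether replicate numbers mark cultures or days, and what set the arsenite replicates apart was not tested.

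Set beside the other lines, DNAJB1 was above both unstressed DDX6 inputs in each of the 6 arsenite inputs, at 75.35 and 84.75 CPM in the TIA1 line and at 124 and 118 CPM in the G3BP2 line. Of 60 members 10 did so, against 9.6% of all tested genes, and they included BAG3, HSPA5, HSPA9 and HSPB1. In the no-probe captures 12 members did so, against 7.35%, among them DNAJB1, DNAJA1, HSP90AA1 and HSP90AB1. Below both unstressed libraries were 2 members in the inputs, DNAJC13 and HSPA12A (10.5% of all genes), and 0 in the no-probe captures (8.5%). In the TIA1 inputs HSPA8 (406 and 688 CPM) and DNAJA1 (111 and 98.2 CPM) lay below both unstressed DDX6 inputs. HSPH1 (101 and 145 CPM) and HSP90AA1 (706 and 1313 CPM) each had replicate 1 below and replicate 2 above them. In the G3BP2 inputs each of these mRNAs lay above both. The no-probe margin of DNAJA1 with TIA1 was small, 114 and 115 CPM against 109 and 110 CPM. The TIA1 and G3BP2 lines have no unstressed libraries here, so line and arsenite cannot be told apart in these values.

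**Figure D1:**
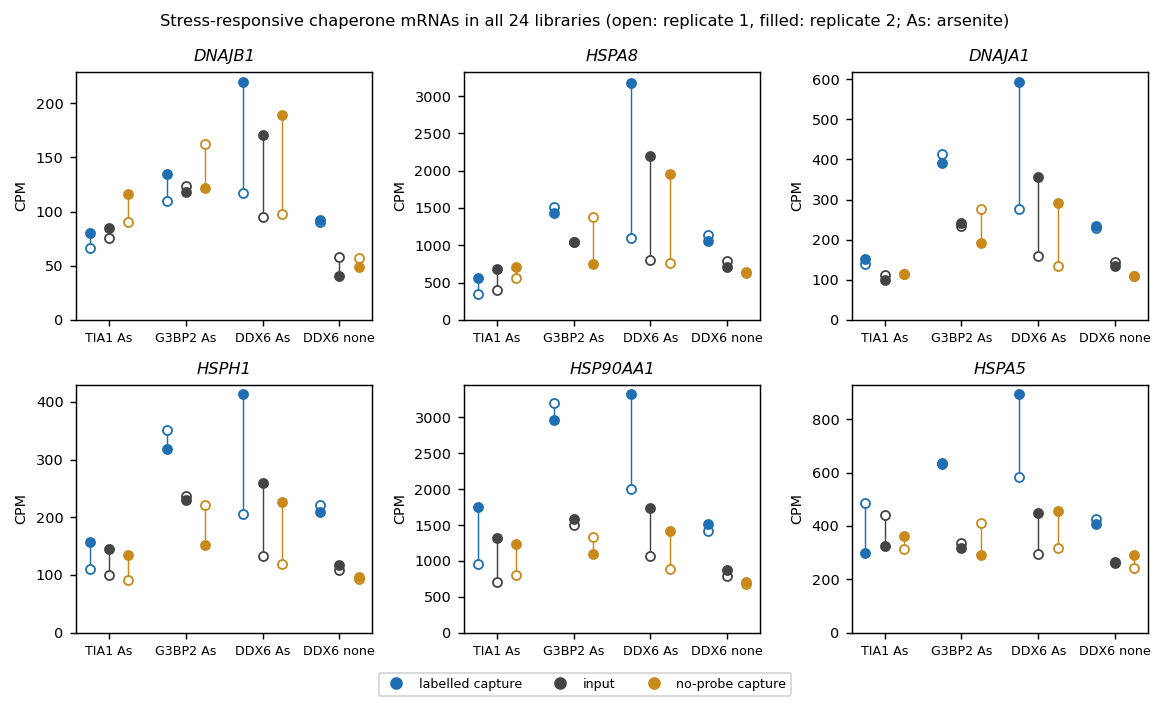
Levels of DNAJB1, HSPA8, DNAJA1, HSPH1, HSP90AA1 and HSPA5 (CPM after TMM scaling, linear axis from 0) in all 24 libraries, with 1 column of points for each kind of library in each condition, open circles for replicate 1, filled circles for replicate 2 and a line joining them. In the DDX6 arsenite libraries replicate 2 is above replicate 1 for all 6 mRNAs, for HSPA8 at 3184 against 1099 CPM in the labelled captures.

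Promoters of 4 of these mRNAs are shown because they moved together between the arsenite replicates and because 3 of them hold a full heat shock element. HSPH1 also moved between these replicates (inputs of 133 and 260 CPM), but it is not shown and is not among the genes with a run of 3 units listed below. The choice rested in part on the motif, so the 4 do not show how common it is among mRNAs that moved. Each sequence runs from 250 bases before to 50 bases after a transcript start, from RefSeq (GRCh38.p14), and capitals mark the motif. In HSPA8, HSP90AA1 and DNAJA1 the capitals are a run of 3 units, GAA and TTC in alternation with any 2 bases between neighbours, and in DNAJB1 they are a run of 2 such units. Runs that begin with GAA and runs that begin with TTC both counted. A run of 2 units reads the same on the other strand and the orders of 3 units are each other's reverse complement, so that both strands were covered, and a run of 3 units also counts as overlapping runs of 2 units.
DNAJB1 (chr19:14518348-14518647, minus strand): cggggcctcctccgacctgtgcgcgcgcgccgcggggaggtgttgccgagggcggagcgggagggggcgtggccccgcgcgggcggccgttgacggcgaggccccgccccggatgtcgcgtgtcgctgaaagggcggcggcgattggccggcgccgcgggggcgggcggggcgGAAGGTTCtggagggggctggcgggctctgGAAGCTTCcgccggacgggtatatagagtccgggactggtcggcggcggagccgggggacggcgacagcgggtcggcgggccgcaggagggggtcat
HSPA8 (chr11:123062087-123062386, minus strand): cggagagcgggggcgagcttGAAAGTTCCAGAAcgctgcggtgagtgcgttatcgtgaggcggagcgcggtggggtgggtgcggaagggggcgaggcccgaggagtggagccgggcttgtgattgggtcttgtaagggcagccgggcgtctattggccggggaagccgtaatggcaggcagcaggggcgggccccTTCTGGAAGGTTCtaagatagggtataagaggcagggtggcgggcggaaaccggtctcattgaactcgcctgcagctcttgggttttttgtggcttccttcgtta
HSP90AA1 (chr14:102086995-102087294, minus strand): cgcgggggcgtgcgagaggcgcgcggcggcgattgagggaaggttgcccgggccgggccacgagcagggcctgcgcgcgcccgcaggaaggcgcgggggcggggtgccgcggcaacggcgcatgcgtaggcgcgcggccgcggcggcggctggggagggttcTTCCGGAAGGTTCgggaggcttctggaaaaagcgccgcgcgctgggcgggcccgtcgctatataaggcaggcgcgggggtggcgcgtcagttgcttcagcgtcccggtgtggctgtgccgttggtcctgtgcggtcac
DNAJA1 (chr9:33025023-33025322, plus strand): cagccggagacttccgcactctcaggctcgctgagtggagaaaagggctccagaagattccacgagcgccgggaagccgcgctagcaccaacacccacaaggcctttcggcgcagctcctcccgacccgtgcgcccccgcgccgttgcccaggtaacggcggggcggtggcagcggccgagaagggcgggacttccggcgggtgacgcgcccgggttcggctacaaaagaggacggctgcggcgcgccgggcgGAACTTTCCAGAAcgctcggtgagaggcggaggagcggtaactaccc

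The 2 motifs of the DNAJB1 promoter begin 77 and 47 bases before the start. Those of HSPA8 begin 230 and 55 bases before it, that of HSP90AA1 88 bases before it, and that of DNAJA1 at base 4 after it. Of the 74 members, 66 had a promoter in the table, and 7 of these genes (10.61%) held a run of 3 units, against 166 of 27305 genes in the whole table (0.6079%). These were DNAJA1, DNAJB6, HSP90AA1, HSP90AB1, HSPA6, HSPA8 and HSPD1. A run of 2 units was in 21 of the 66 (31.82%), against 16.18% of all genes. The 6 tested members with a run of 3 units had a median arsenite log2 fold change of 0.58 in the inputs, from 0.25 to 1.00, and the other 47 tested members with a promoter 0.28, from -0.42 to 1.44. Across the whole table, the 50 tested genes with a run of 3 units had a median of 0.10, from -1.54 to 1.43. These matches are a description of letters in a window and not of binding.

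The labelled captures compared with their inputs ask which chaperone mRNAs lay near each fusion. With TIA1 under arsenite 16 members were higher and 6 lower, against 19.4% and 16.4% of all tested genes (35.8% in either direction). With G3BP2 under arsenite 23 were higher and 6 lower (20.8% and 17.5%, 38.3% in all). With DDX6 26 were higher and 7 lower under arsenite (20.4% and 17.3%, 37.7% in all), and 30 higher and 3 lower in unstressed cells (22.9% and 19.6%, 42.5% in all). The median enrichment over the 60 members was 0.24, 0.35, 0.45 and 0.53 on the log2 scale in this order, against medians of 0.02, -0.01, -0.02 and 0.01 over all tested genes. The members are nuclear protein-coding mRNAs, and over the 12326 tested genes of that kind the medians were 0.06, 0.08, 0.07 and 0.11.

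Some of these counts moved by more than 1.5 times when 1 library was left out. No share of all genes is given for those fits, and a group of 1 library has less power. The changes therefore cannot be read as particular to the members. The DDX6 arsenite count of 33 was 18 without input replicate 1. The unstressed DDX6 count of 33 was 20 without capture replicate 1, 16 without input replicate 1 and 21 without input replicate 2. The TIA1 count of 22 was 11 without capture replicate 1 and 13 without input replicate 2.

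Across the 4 enrichments 34 members were higher in at least 1 and 9 lower in at least 1, no member was higher in 1 and lower in another, and 17 passed in none. The 11 higher in all 4 were HSPA13, HSPA14, HSPA4L and HSPA9 of the HSP70 and HSP110 groups, DNAJC3, DNAJC6, DNAJC10 and DNAJC13 of the J-domain proteins, BAG4, BAG5 and HSF2. The 2 lower in all 4 were HSPB1 and DNAJC4. Of all tested genes 35.8% to 42.5% passed in each enrichment. No share of all genes is given for these patterns across conditions, so they describe the members and do not set them apart.

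**Figure D2:**
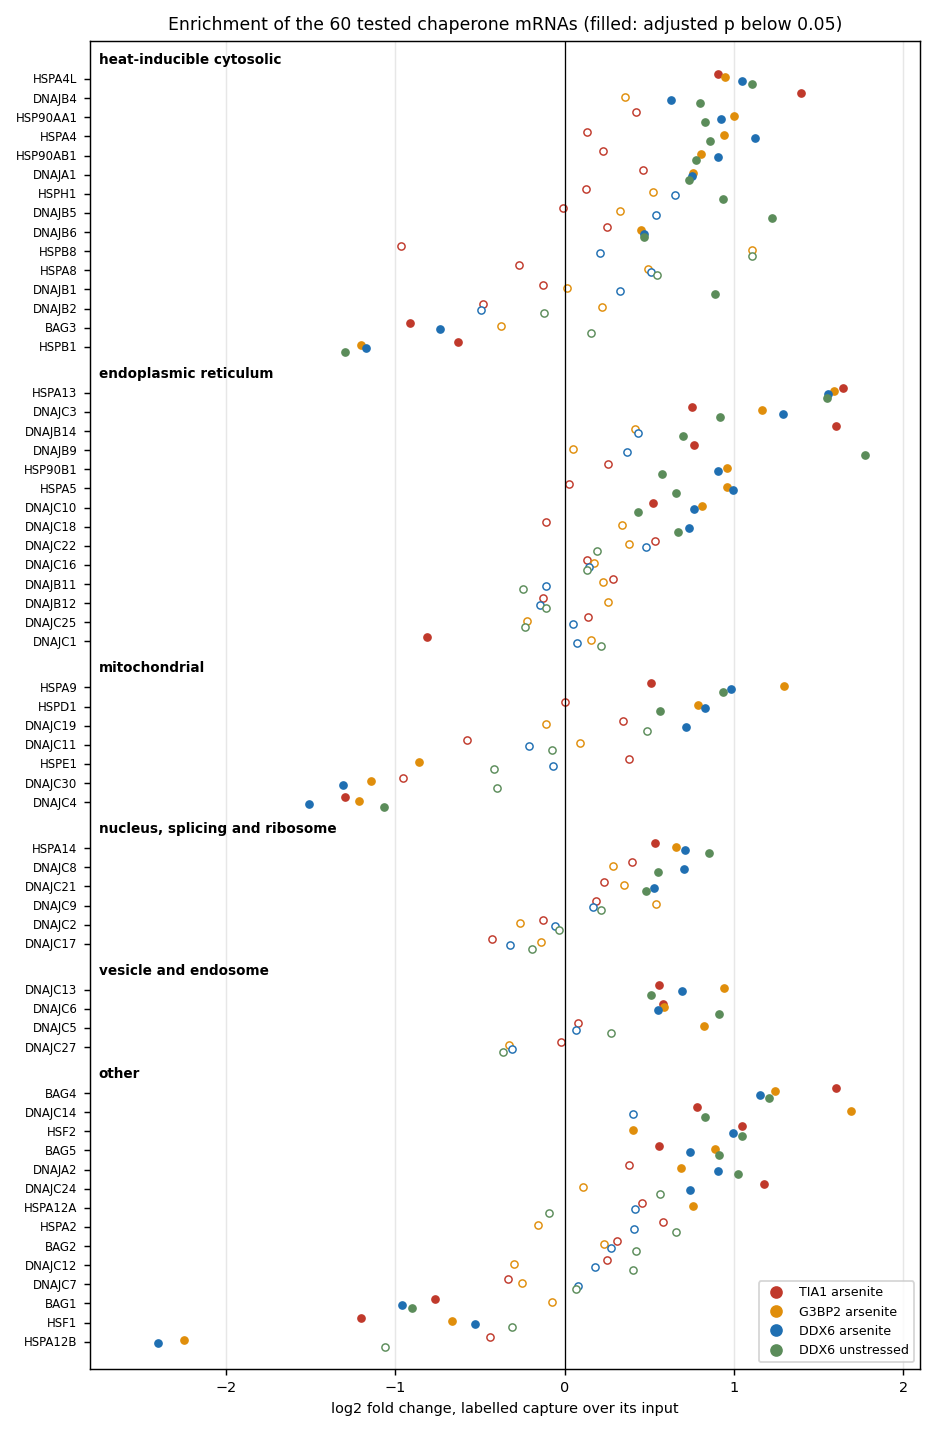
Log2 fold change of the labelled capture over its input for each of the 60 tested members (1 row each, grouped by role, 1 point for each of the 4 conditions, filled where adjusted p was below 0.05). HSPA13 and BAG4 lie above 1 in all 4 conditions, while HSPB1 lies between -0.63 and -1.29.

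HSPA13, an HSP70-like protein of the ER and microsomes (gene at chr21:14371115-14383484, GRCh38), was captured with every fusion. It rose 3.13-fold with TIA1, 3.02-fold with G3BP2, 2.93-fold with DDX6 under arsenite and 2.92-fold with unstressed DDX6, with adjusted p from 2.11e-08 to 8.075e-08. Its labelled captures held 293 and 219 CPM with TIA1, against 87.8 and 75.8 CPM in the inputs and 55.5 and 68.7 CPM without probe. With unstressed DDX6 they held 157 and 142 CPM, against 49.4 and 52.8 CPM in the inputs and 51.8 and 62.3 CPM without probe. In each condition both captures lay above every input and no-probe library, and the call held with each of the 24 libraries left out.

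BAG4, a nucleotide exchange factor of HSP70 also known as silencer of death domains, rose by 1.60 ± 0.19, 1.24 ± 0.18, 1.15 ± 0.18 and 1.21 ± 0.18 on the log2 scale with TIA1, G3BP2, DDX6 under arsenite and unstressed DDX6. DNAJC3, the luminal ER partner of HSPA5 that is also known as an inhibitor of eIF2α kinases, rose by 0.75 ± 0.19, 1.16 ± 0.19, 1.29 ± 0.19 and 0.92 ± 0.18, the first not without TIA1 capture replicate 1 (0.53, adjusted p = 0.0801). HSPA9, the HSP70 of mitochondria, rose by 0.51 ± 0.18, 1.29 ± 0.18, 0.98 ± 0.18 and 0.93 ± 0.18, and its TIA1 call ended without capture replicate 1, input replicate 1 or input replicate 2 (adjusted p from 0.0644 to 0.160). HSPA4L, of the HSP110 group, rose by 0.91 ± 0.19, 0.95 ± 0.18, 1.05 ± 0.17 and 1.10 ± 0.17. The mitochondrial proteins coded by HSPA9 and HSPD1 are made from nuclear genes on cytosolic ribosomes, unlike the RNAs of the mitochondrial genome.

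The heat shock factors went in opposite directions. HSF2, the paralogue active in development, stood at 78.7 and 79.2 CPM in the TIA1 captures and at 39.5 and 36.9 CPM in the inputs. HSF1 stood at 28.7 and 35.2 CPM in the same captures and at 64.7 and 82.3 CPM in the inputs. The captures therefore lay above the inputs for HSF2 and below them for HSF1, without overlap. HSF2 rose by 1.05 ± 0.17 with TIA1, 0.40 ± 0.16 with G3BP2, 0.99 ± 0.16 with DDX6 under arsenite and 1.05 ± 0.16 with unstressed DDX6. The G3BP2 call on HSF2 (adjusted p = 0.0436) ended without G3BP2 capture replicate 1 (0.32, adjusted p = 0.224) or input replicate 1 (0.26, adjusted p = 0.370), or without any 1 of 4 unstressed DDX6 captures and inputs (adjusted p from 0.0524 to 0.0534).

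HSF1 fell by 1.20 ± 0.21 with TIA1 (adjusted p = 5.41e-05), a call that held with each library left out. It fell by 0.66 ± 0.21 with G3BP2 (adjusted p = 0.0121) and by 0.53 ± 0.21 with DDX6 under arsenite (adjusted p = 0.0447), and stood at -0.31 ± 0.20 in unstressed DDX6 (adjusted p = 0.227). The G3BP2 call ended without capture replicate 1 (adjusted p = 0.160) or input replicate 1 (0.216), and that of DDX6 under arsenite without capture replicate 1 (0.294), input replicate 1 (0.0835) or input replicate 2 (0.169), or without single libraries of other conditions (0.0504 to 0.0555). With total counts in place of TMM, the DDX6 arsenite value of HSF1 was 0.00895.

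HSPB1 and DNAJC4 were lower in all 4 enrichments, BAG1 in 3, and HSPA12B, DNAJC30 and BAG3 in 2. HSPB1 (HSP27), a small heat shock protein that holds unfolded proteins in solution, stood at 21.2 and 18.3 CPM in the DDX6 arsenite captures and at 50.6 and 39.1 CPM in the inputs. It was 1.55-fold lower with TIA1, 2.30-fold with G3BP2, 2.25-fold with DDX6 under arsenite and 2.45-fold with unstressed DDX6. The TIA1 call ended without capture replicate 1 (adjusted p = 0.256) or input replicate 2 (adjusted p = 0.198), and with total counts in place of TMM its TIA1 value was 0.0269 on the log2 scale. BAG1, an exchange factor that links HSP70 to the proteasome, fell by 0.76 ± 0.27 with TIA1, 0.96 ± 0.25 with DDX6 under arsenite and 0.90 ± 0.25 with unstressed DDX6, and stood at -0.07 ± 0.23 with G3BP2.

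Each BAG1 call ended without some library. Its adjusted p was 0.235 without TIA1 capture replicate 1 and 0.374 without TIA1 input replicate 2. With DDX6 it was 0.0905 and 0.0805 without arsenite capture replicate 1 and input replicate 2, and 0.155 without unstressed input replicate 1. DNAJC4 fell by 1.30 ± 0.41, 1.22 ± 0.44, 1.51 ± 0.42 and 1.06 ± 0.40 in the 4 conditions, at 2.37 to 12.6 CPM in the arsenite captures and inputs, and each of these calls also ended with 1 library left out (adjusted p up to 0.393). BAG3, the partner of HSPB8 in selective autophagy, fell by 0.91 ± 0.25 with TIA1 and by 0.74 ± 0.24 with DDX6 under arsenite, and stood at -0.38 ± 0.23 with G3BP2 and 0.16 ± 0.24 with unstressed DDX6. Its TIA1 call ended without input replicate 2 (adjusted p = 0.102), and its DDX6 call without capture replicate 1 (0.226) or input replicate 2 (0.189). HSPA12B, a distant HSP70 relative known from endothelium, fell by 2.24 ± 0.60 with G3BP2 and by 2.40 ± 0.77 with DDX6 under arsenite, from few counts (0.806 and 0.847 CPM in the G3BP2 captures), the latter not without input replicate 1 (adjusted p = 0.0881).

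**Figure D3:**
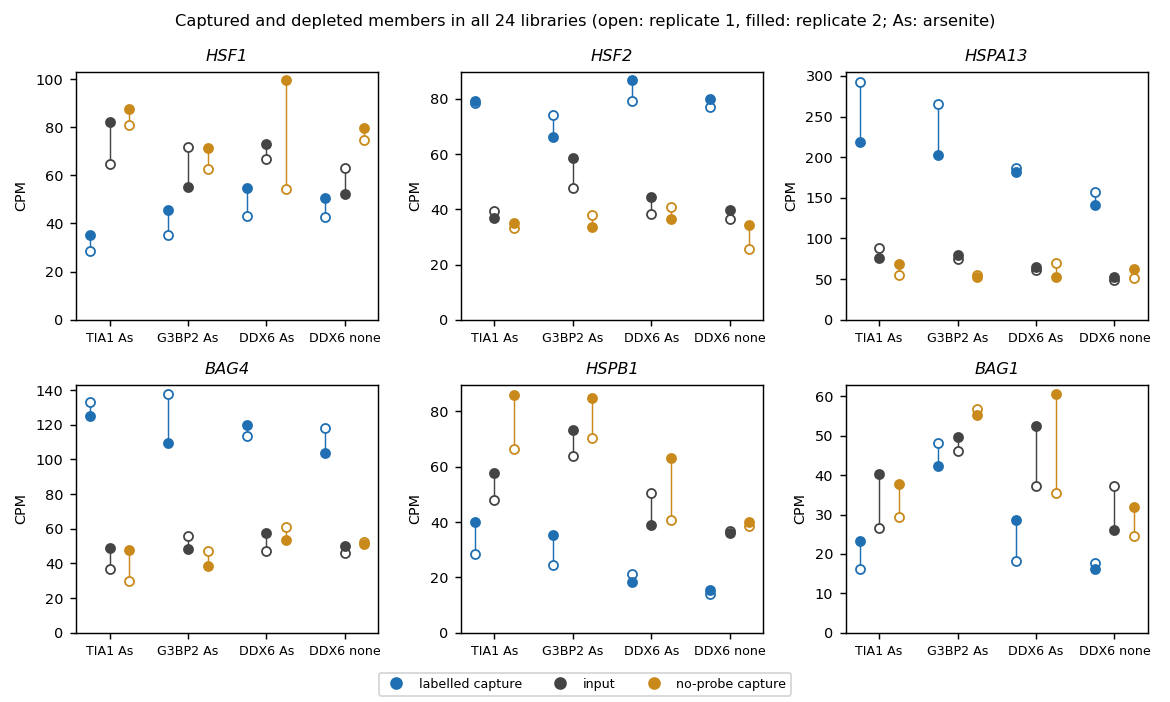
Levels of HSF1, HSF2, HSPA13, BAG4, HSPB1 and BAG1 (CPM after TMM scaling, linear axis from 0) in all 24 libraries, with open circles for replicate 1 and filled circles for replicate 2 of each kind of library. The labelled captures lie above the inputs and no-probe captures for HSF2, HSPA13 and BAG4, and below them for HSPB1.

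HSP90AB1 and HSP90AA1 passed with G3BP2 and DDX6, while HSPA8 passed with none of the fusions. HSP90AB1 rose by 0.81 ± 0.19 with G3BP2, 0.91 ± 0.19 with DDX6 under arsenite and 0.78 ± 0.19 with unstressed DDX6, and stood at 0.23 ± 0.19 with TIA1. HSP90AA1 rose by 1.00 ± 0.28, 0.92 ± 0.28 and 0.83 ± 0.28 in the same order, and stood at 0.42 ± 0.28 with TIA1. Its DDX6 arsenite captures held 2000 and 3322 CPM and its inputs there 1064 and 1741 CPM, by replicate number. Its G3BP2 call ended without input replicate 1 (adjusted p = 0.0573), its DDX6 arsenite call without capture replicate 2 (0.210) or input replicate 1 (0.195), and its unstressed call without any 1 of its 4 capture and input libraries (0.0570 to 0.126). HSPA8, the constitutive HSP70, passed in none of the 4, at -0.27 ± 0.39, 0.50 ± 0.39, 0.51 ± 0.39 and 0.55 ± 0.39 with TIA1, G3BP2, DDX6 under arsenite and unstressed DDX6. This fit does not pair libraries of the same number, so its SE holds the spread between replicates. By replicate number, captures against inputs held 1514 and 1436 against 1045 and 1048 CPM with G3BP2. These were 1099 and 3184 against 803 and 2197 CPM with DDX6 under arsenite, and 1137 and 1052 against 783 and 714.5 CPM unstressed. With TIA1 they were 343 and 563 against 406 and 688 CPM. A missed threshold does not show that HSPA8 was left uncaptured.

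Some inducible mRNAs passed with DDX6 in unstressed cells but not under arsenite. DNAJB1 rose by 0.89 ± 0.27 in unstressed cells (adjusted p = 0.00905), with captures of 90.0 and 92.1 CPM above inputs of 57.9 and 40.2 CPM, and stood at 0.33 ± 0.25 under arsenite. HSPH1 rose by 0.94 ± 0.28 in unstressed cells and stood at 0.65 ± 0.28 under arsenite. The difference between the conditions did not pass for any member. The unstressed call of DNAJB1 ended without input replicate 2 (adjusted p = 0.140) and that of HSPH1 without input replicate 1 (0.0744).

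With DDX6 under arsenite the captures of DNAJA1 held 275 and 594 CPM and its inputs 159 and 356 CPM, by replicate number. Leaving out 1 of these libraries sets a single replicate of 1 kind against both replicates of the other. DNAJA1 rose by 0.76 ± 0.28 with G3BP2, 0.75 ± 0.28 with DDX6 under arsenite and 0.74 ± 0.29 with unstressed DDX6. None of these calls held throughout: with G3BP2 and with unstressed DDX6 each ended without any 1 of the 4 capture and input libraries (adjusted p from 0.0694 to 0.160), and with DDX6 under arsenite without capture replicate 2 (0.803) or input replicate 1 (0.528). HSP90B1 rose by 0.96 ± 0.18, 0.90 ± 0.18 and 0.58 ± 0.18, the last not without capture replicate 1 or either input (0.0556 to 0.0952).

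The members were also grouped by place of work, to be read against the shares of all tested genes given above (19.4% higher and 16.4% lower with TIA1, 20.8% and 17.5% with G3BP2, 20.4% and 17.3% with DDX6 under arsenite, 22.9% and 19.6% with unstressed DDX6). Several of these small counts lie near or below those shares. The cytosolic inducible group had 15 tested members of 20. Of these 2 rose and 2 fell with TIA1, 6 rose and 1 fell with G3BP2, 7 rose and 2 fell with DDX6 under arsenite, and 10 rose and 1 fell with unstressed DDX6, with medians of 0.13, 0.50, 0.54 and 0.80. The 14 ER members had 5, 5, 6 and 8 that rose and 1, 0, 0 and 0 that fell, with medians of 0.27, 0.36, 0.46 and 0.50. Of 7 tested mitochondrial members 1, 2, 3 and 2 rose and 1, 3, 2 and 1 fell, with medians of 0.00, -0.11, -0.07 and -0.08. Of 6 members of the nucleus, spliceosome and ribosome 1, 1, 3 and 3 rose and none fell, with medians of 0.21, 0.32, 0.35 and 0.35. Of 4 vesicle members, 2, 3, 2 and 2 rose and none fell. DNAJC13, an endosomal protein, and DNAJC6 (auxilin), which strips clathrin from vesicles, rose in each condition. DNAJC5 rose with G3BP2 alone (0.82 ± 0.17).

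The chaperonin pair of mitochondria did not move as 1. HSPD1 (HSP60) rose by 0.79 ± 0.21 with G3BP2, 0.83 ± 0.21 with DDX6 under arsenite and 0.56 ± 0.21 with unstressed DDX6, and stood at 0.00 ± 0.21 with TIA1. Its DDX6 arsenite captures held 1101 and 1589 CPM and its inputs there 656 and 861 CPM, by replicate number. Its DDX6 arsenite call ended without capture replicate 2 (adjusted p = 0.0672) or input replicate 1 (0.0638), and its unstressed call without any 1 of its 4 capture and input libraries (0.0595 to 0.169). HSPE1 (HSP10), which caps it, fell by 0.86 ± 0.27 with G3BP2 (adjusted p = 0.0113) and stood at 0.38 ± 0.32, -0.07 ± 0.26 and -0.42 ± 0.27 with TIA1, DDX6 under arsenite and unstressed DDX6. Its G3BP2 call ended without capture replicate 2 (0.0776) or input replicate 2 (0.0999), and with an exon length trend as offset its value was -0.24. HSPE1 shares 23.9% of its exonic bases with overlapping genes, and its 26 annotated pseudogenes held 342 counts beside its own 1621, so that its counts are uncertain.

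In the list of partners outside the set, TRiC and prefoldin had 1 gene higher and 1 lower of 13 tested with TIA1, 5 and 2 with G3BP2, 7 and 0 with DDX6 under arsenite, and 7 and 1 with unstressed DDX6. The co-chaperones of HSP70 and HSP90 had 1 higher and 4 lower of 21 tested with TIA1, 5 and 1 with G3BP2, 7 and 2 with DDX6 under arsenite, and 6 and 4 with unstressed DDX6. Over all tested genes the shares were 19.4% and 16.4%, 20.8% and 17.5%, 20.4% and 17.3%, and 22.9% and 19.6% in the same order, and many of these counts lie near them.

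The no-probe captures were set against the inputs as a background. None of the 60 members passed in the no-probe capture over the input in any of the 4 conditions with edgeR's test (3, 6, 2 and 6 had an unadjusted p below 0.05, against 6.859%, 13.74%, 6.476% and 8.315% of all genes), against 0.0139%, 0.167%, 0.0% and 0.0139% of all tested genes. The labelled captures were also compared with the no-probe captures (probe dependence), a comparison that shares the labelled captures with the enrichments. It had 18 members higher and 10 lower with TIA1 (23.7% and 21.7% of all genes, 45.4% in all), 27 and 5 with G3BP2 (23.7% and 21.7%, 45.4% in all), 27 and 4 with DDX6 under arsenite (22.5% and 20.2%, 42.7% in all), and 31 and 5 with unstressed DDX6 (25.1% and 23.1%, 48.1% in all). The total was lower with G3BP2 without no-probe capture replicate 2, and with TIA1 without no-probe capture replicate 1. No share of all genes is given for these 2 fits.

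Members higher in both comparisons numbered 15 with TIA1 (17.7% of all genes), 21 with G3BP2 (17.6%), 23 with DDX6 under arsenite (17.7%) and 29 with unstressed DDX6 (19.9%). The counts that follow, with 1 library left out, have no share of all genes beside them. They cannot be read as particular to the members. Without 1 library the TIA1 count was 8 without capture replicate 1 or input replicate 1 and 9 without input replicate 2. The DDX6 arsenite count was 15 without capture replicate 2 and 13 without input replicate 1. The unstressed count was 14 and 19 without capture replicates 1 and 2, and 15 and 18 without input replicates 1 and 2. HSPA13 had the highest probe dependence under arsenite, at 2.04 ± 0.18 with TIA1, 2.12 ± 0.19 with G3BP2 and 1.60 ± 0.18 with DDX6.

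The lines were then compared under arsenite by the difference of their enrichments, which asks whether an mRNA was captured more with 1 fusion than with another. DNAJB14, a J-domain protein of the ER membrane, was the only member that passed in the fit without a replicate block, against 3.61% of all genes for TIA1 against G3BP2 (2.28% higher) and 2.35% for TIA1 against DDX6 (1.51% higher), comparisons that share the TIA1 libraries. With a replicate block, which pairs the libraries of the same number within a condition, 11 of 60 members passed for TIA1 against G3BP2, against 8.9% of all tested genes in that fit, and 7 for TIA1 against DDX6, against 6.95%, DNAJB14 among them (adjusted p = 0.00312 and 0.00471). The protocol keeps inputs from the RNA that goes to capture, but the labels do not state that equal numbers mark the same RNA. Its TIA1 captures held 74.7 and 85.6 CPM and its inputs 22.6 and 30.4 CPM. With G3BP2 its captures held 69.2 and 54.7 CPM and its inputs 42.1 and 51.2 CPM, and with DDX6 51.2 and 51.5 CPM against 39.9 and 36.1 CPM. The captures were above the inputs in all 3 lines, by the widest margin with TIA1. The enrichment was 1.60 ± 0.21 with TIA1, 0.42 ± 0.19 with G3BP2 and 0.43 ± 0.19 with DDX6, a difference of 1.183 ± 0.28 (adjusted p = 0.0149) and 1.165 ± 0.28 (adjusted p = 0.0233).

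The first difference lost its call without TIA1 input replicate 1 (0.98, adjusted p = 0.104), TIA1 capture replicate 2 (0.0591), G3BP2 capture replicate 2 (0.0871) or G3BP2 input replicate 2 (0.0906). The second lost it without TIA1 input replicate 1 (0.96, adjusted p = 0.135), TIA1 captures 1 or 2 (0.0507 and 0.0922), DDX6 capture replicate 2 (0.0633) or DDX6 input replicate 1 (0.0921). DNAJB4, a cytosolic J-domain protein, stood at 1.40 ± 0.26 with TIA1 against 0.36 ± 0.23 with G3BP2 and 0.63 ± 0.24 with DDX6. DNAJC24, which takes part in making diphthamide, stood at 1.175 ± 0.29 against 0.11 ± 0.25 and 0.74 ± 0.26. The differences of TIA1 from G3BP2 were 1.04 ± 0.35 and 1.07 ± 0.38, and they did not pass in the fit without the block (adjusted p = 0.0830 and 0.108). Their values with the block are not given here.

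Several abundant chaperones had lower values with TIA1 than with the other fusions, again without passing in the fit without the block. HSPA4 stood at 0.13 ± 0.22 with TIA1, 0.94 ± 0.21 with G3BP2 and 1.12 ± 0.21 with DDX6, and the difference of TIA1 from DDX6 was -0.995 ± 0.30 (adjusted p = 0.0746). HSPA5 stood at 0.03 ± 0.23, 0.96 ± 0.23 and 0.99 ± 0.23, a difference of -0.93 ± 0.32 from G3BP2 (adjusted p = 0.101) and -0.97 ± 0.32 from DDX6 (adjusted p = 0.109). The levels of HSPA5 in the TIA1 captures, 485 and 298 CPM, overlapped those in the inputs, 441 and 327 CPM, whereas with G3BP2 634 and 637 CPM stood above 336 and 317 CPM. With DDX6 under arsenite HSPA5 captures held 584 and 896 CPM and inputs 295 and 448 CPM, by replicate number. Its call with DDX6 under arsenite ended without input replicate 1 (adjusted p = 0.0520), and its call of 0.66 ± 0.23 with unstressed DDX6 without any 1 of the 4 capture and input libraries (0.0616 to 0.101). HSPA9, HSPD1, HSP90B1 and HSP90AB1 had differences of -0.78, -0.79, -0.70 and -0.58 from G3BP2 (adjusted p from 0.0729 to 0.241). With the block 7 chaperones passed against DDX6: DNAJB14 higher with TIA1, and HSPA4 (-0.98, adjusted p = 0.00327), HSPA5 (-0.98, 0.00662), HSPD1 (-0.81, 0.00844), HSP90AB1 (-0.67, 0.0324), HSPA8 (-0.76, 0.0396) and HSP90B1 (-0.65, 0.0456) lower. Against G3BP2, HSPA5 (-0.95, adjusted p = 0.00719), HSPD1 (-0.78, 0.0096), HSPA9 (-0.77, 0.0115), HSPA4 (-0.79, 0.0129), HSP90B1 (-0.70, 0.0266) and HSPA8 (-0.76, 0.0348) were lower with the block and HSPE1 (1.23, 0.0326) was higher. Not all members that passed against G3BP2 with the block are named here. The values of the named ones moved little and the calls changed. DNAJC1, an ER J-domain protein at the ribosome exit, was lower in the TIA1 captures than in their inputs (-0.81 ± 0.22, adjusted p = 0.00399, not without input replicate 2, adjusted p = 0.0645) and stood at 0.16 ± 0.19 with G3BP2 and 0.07 ± 0.20 with DDX6. Its differences, -0.97 ± 0.29 from G3BP2 (adjusted p = 0.0522) and -0.88 ± 0.30 from DDX6 (adjusted p = 0.107), did not pass in the fit without the block. Those with the block are not given here.

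Between G3BP2 and DDX6 no member passed with edgeR's test, against 0.0487% of all genes, and DESeq2 called 0. An unadjusted p below 0.05 was found for 6 members and 11% of all genes. The fit with the replicate block called 2 members and 1.59% of all genes. Between arsenite and no arsenite in the DDX6 line no enrichment of a member differed with edgeR's test, against 0.0209% of all genes, and DESeq2 called 0. An unadjusted p below 0.05 was found for 2 members and 4.206% of all genes. The largest change was that of DNAJB9, an ER J-domain protein and stress target, with 1.77 ± 0.33 in unstressed cells and 0.37 ± 0.31 under arsenite, a difference of -1.41 ± 0.46 (adjusted p = 0.976). Its inputs were 5.37 and 6.44 CPM unstressed and 11.8 and 9.85 CPM under arsenite, and its captures 23.9 and 16.5 CPM against 12.7 and 15.4 CPM. A p that misses the threshold does not show that these enrichments were alike.

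**Figure D4:**
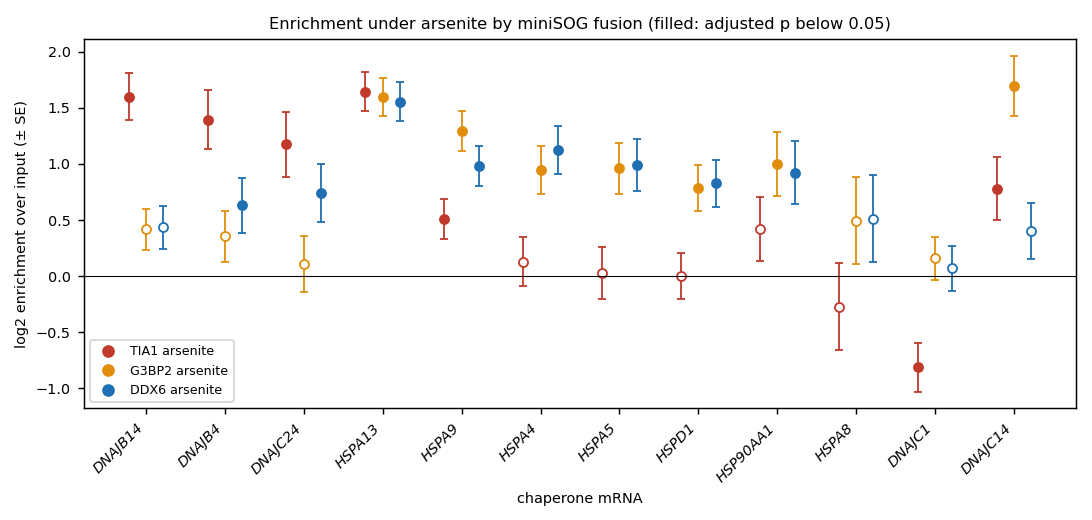
Log2 enrichment over input under arsenite (± SE of the model) of 12 members with TIA1, G3BP2 and DDX6, filled where adjusted p was below 0.05. DNAJB14 lies at 1.60 with TIA1 and at 0.42 and 0.43 with the others, while HSPA4 and HSPA5 lie at 0.13 and 0.03 with TIA1 and near 1 with the others.

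Base composition moved with capture. Across the 60 members, enrichment and GC content of the exons had a Pearson correlation of -0.75 with TIA1, -0.49 with G3BP2, -0.69 with DDX6 under arsenite and -0.57 with unstressed DDX6. Over the 12326 tested nuclear protein-coding genes it was -0.63, -0.34, -0.53 and -0.52, so the members share the relation with mRNAs at large, and the points within a condition share their libraries. The 19 members with more than 50% GC had a median TIA1 enrichment of -0.44, the 28 with 40% to 50% a median of 0.32, and the 13 with up to 40% a median of 0.52. In the other conditions the middle group was the highest, at 0.62 with G3BP2, 0.71 with DDX6 under arsenite and 0.66 with unstressed DDX6, against 0.36, 0.65 and 0.56 in the group with the lowest GC content and 0.09, -0.14 and -0.08 in that with the highest. HSPA13 has 34.87% GC and HSF2 40.48%, and HSPB1 has 64.33% and HSF1 64.73%. With log2 exon length the Pearson correlation lay between 0.25 and 0.42. By rank, G3BP2 enrichment correlated with length at 0.38 and with GC content at -0.33. HSPA4L, HSPA9 and DNAJC3 rose with all 4 captures at 38.05%, 43.54% and 39.87% GC. The part of base composition in any enrichment was not tested.

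**Figure D5:**
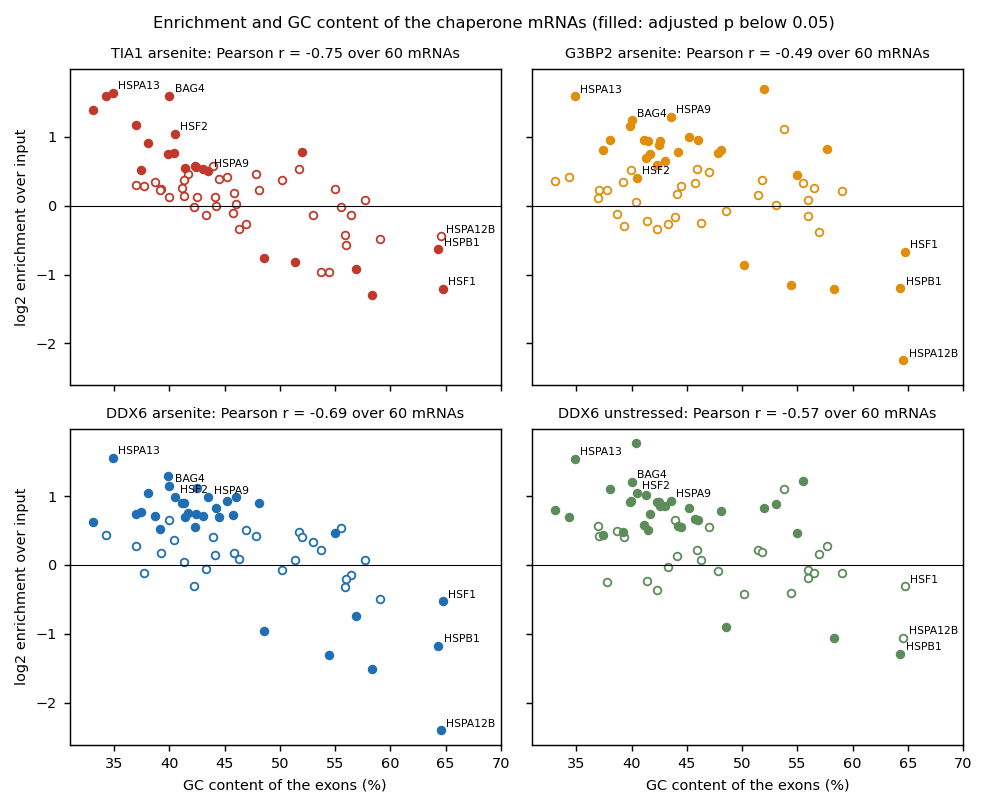
Log2 enrichment over input of the 60 tested members against the GC content of their exons, in 1 panel for each condition, filled where adjusted p was below 0.05. HSPA13, at 34.87% GC, lies near the top and HSPB1 and HSF1, above 64% GC, lie below 0 in all 4 panels.

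Overlap between genes limits a few values. The labels do not say whether the library kit kept the strand, and the strand setting of the counting is not given in the sources used here. DNAJC14, known for helping a dopamine receptor leave the ER, rose 3.23-fold with G3BP2, the highest of the members there, but shares 58.1% of its exonic bases with other genes, and BAG2 shares 44.2%. DNAJB5, a cytosolic J-domain protein, rose 2.33-fold with unstressed DDX6, not without input replicate 1 (adjusted p = 0.0606), and DNAJC30, of mitochondria, fell by 1.14 ± 0.41 with G3BP2 and 1.31 ± 0.43 with DDX6 under arsenite, calls that ended without single libraries of either (adjusted p up to 0.160 and 0.634).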

How the data were processed

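The deposited table holds whole-number read counts per gene for 24 libraries. Per the submitters' processing notes the tools named are cutadapt 1.18, FastQC 0.11.8, HISAT2 2.1.0, SAMtools and HTSeq 0.7.2 with GRCh38, and the annotation is Ensembl 87 per the file headers. How strand was set and how multi-mapped reads were treated is not given in the sources used here. Positions, exon lengths and overlaps came from GENCODE 29, and promoters from RefSeq (GRCh38.p14).

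Counts were fitted in edgeR 4.0.16 (R 4.3.3) with TMM scaling, its default filter on low counts, 12 group means and 12 residual degrees of freedom, and quasi-likelihood tests with Benjamini-Hochberg adjustment over all 14360 tested genes at 0.05. The biological coefficient of variation was 12.9%. The fit was tested on simulated data. CPM values are TMM-scaled. Total counts of 1129510 to 5919467 limit the precision of low mRNAs, and with no molecular identifiers a floor of 3 counts covers counting error only. DESeq2 1.42.0, other scalings and filters, an exon length offset, a replicate block, fits on the compared libraries alone and each library left out were alternatives.

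The members and gene lists were chosen with earlier results of these data known, so no test was made over a list. Named members are up to 5 of the highest and 5 of the lowest that passed in each comparison, plus a fixed set of main chaperones. Promoters were shown after their values were seen.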

Additional observations from a re-analysis of the deposited data

Results flagged for a closer look

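DNAJB14 was picked out because its enrichment over input differed between fusions under arsenite by a test of the difference itself. The enrichment was higher with TIA1 than with G3BP2 by 1.183 on the log2 scale (adjusted p = 0.0149) and higher than with DDX6 by 1.165 (adjusted p = 0.0233), quasi-likelihood test of edgeR, Benjamini-Hochberg adjusted over all tested genes. Both differences share the TIA1 libraries, and each line carries 1 fusion, so that line and fusion cannot be told apart.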

How the results depend on the processing

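With total counts as library size, medians over all genes shifted by 0.296 to 0.846 for the captures over inputs and no-probe captures, and 39 members passed for TIA1 enrichment, 46 for its probe dependence, 37 and 38 in both comparisons with TIA1 and with DDX6 under arsenite, 0 between arsenite and no arsenite in labelled captures and 3 in no-probe captures. The same scaling, which shifts all genes alike, turned the sign of 4 named values that passed in 1 of the fits, BAG3 (0.0751) and HSPD1 (0.818) in TIA1 probe dependence, HSF1 (0.00895) in DDX6 arsenite enrichment and HSPB1 (0.0269) in TIA1 enrichment. Over all settings but those that leave out libraries, 69 other values of named members changed sign while the side of the threshold stayed as it was. DESeq2 called 18 in both comparisons with unstressed DDX6, 5 and 2 for TIA1 against DDX6 and against G3BP2, and 6 and 5 for arsenite in labelled and no-probe captures. The compared libraries alone gave 19 for DDX6 arsenite probe dependence, 11 in both comparisons there, 0 and 11 for TIA1 against DDX6 and G3BP2, and 2, 1 and 0 for arsenite in inputs, labelled and no-probe captures. No filter gave 3 and 2 for TIA1 against DDX6 and G3BP2, and 5, 5 and 7 for arsenite. The length offset gave 2 for both TIA1 differences and 2 for arsenite without probe, and RLE factors 2 for TIA1 against G3BP2. Without DDX6 arsenite replicate 1 in all 3 kinds, chosen after seeing the data, 13, 19 and 21 members passed for arsenite (10.2%, 17.2% and 14.5% of all genes), and without replicate 2 in all 3 kinds 1 in labelled captures. Either omission gave 2 for TIA1 against DDX6 and 11 for TIA1 against G3BP2. The cause was not tested. Where a count above or below lacks a share of all tested genes under its setting, none is given. A change in such a count cannot be read as particular to the members.

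With each library left out, counts ran from 11 to 24, 20 to 30, 18 to 34 and 16 to 34 for enrichment with TIA1, G3BP2, DDX6 under arsenite and unstressed DDX6, and from 17 to 31, 20 to 33, 26 to 33 and 26 to 37 for probe dependence. In both comparisons they ran from 8 to 15, 15 to 22, 13 to 24 and 14 to 29. The differences ran from 0 to 7 for TIA1 against G3BP2, 0 to 4 for TIA1 against DDX6 and 0 to 0 for the others, and arsenite from 0 to 6 in inputs, 0 to 17 in labelled and 0 to 17 in no-probe captures. Whether replicate numbers pair the libraries is not settled by the labels. Deviations of same-numbered captures and inputs correlated at 0.168, 0.0402, 0.389 and -0.00417 with TIA1, G3BP2, DDX6 under arsenite and unstressed DDX6, and those of captures and no-probe captures at 0.0626, 0.0718, 0.26 and -0.0326, highest for DDX6 under arsenite in each. With a replicate block 11 members passed for TIA1 against G3BP2, 7 for TIA1 against DDX6 and 2 for G3BP2 against DDX6 (8.9%, 6.95% and 1.59% of all genes), and 29, 33, 37 and 35 for the enrichments (41%, 44%, 43.4% and 48.2%). The block could not be fitted for the arsenite comparisons, and HSPA1A with HSPA1B summed had too few counts to test.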
